A study of Mus musculus with 2 samples.

Results

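The 10 genes described here encode ligands that T cells read as checkpoint or costimulatory signals: Cd274, Pdcd1lg2, Cd80, Cd86, Pvr, Nectin2, Lgals9, Ceacam1, Tnfrsf14 and Vsir. They are the 10 rows with those symbols among the 27635 genes of the single-cell mRNA table, read in the barcodes with at least 500 genes and at most 25% mitochondrial counts, which were 11318 of 12016 barcodes. The cells came from subcutaneous B16F10 melanoma, a mouse melanoma line, taken 14 days after transplant and enriched for CD3+ cells by magnetic positive selection after a Percoll step. Cells of wild-type mice and of mice that the labels call Nr4a KO (NR4a1/2 in the series title) carried hashtag antibodies, which mark the sample of origin, and were pooled into 1 BD Rhapsody capture of about 20000 cells with TAS-Seq amplification. The deleting allele or Cre driver, the strain and the age of the mice are not stated in the labels. The labels tie no hashtag to a genotype, so the capture holds both genotypes, there is no replicate, and no genotype comparison and no test were made. Each of the 6 hashtags in use (A0301 to A0306) is given below as a sample of unknown group.

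A T cell that meets its antigen integrates a second set of signals from ligands on the cell that presents it. Cd80 and Cd86 bind the activating receptor CD28 and the inhibitory receptor CTLA-4, while the products of Cd274 (PD-L1) and Pdcd1lg2 (PD-L2) bind the inhibitory receptor PD-1. Pvr and Nectin2 are shared by the activating receptor CD226 and the inhibitory receptors TIGIT and, for Nectin2, PVRIG. In tumours Cd274 is known as a gene induced by interferon-gamma.

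Promoter sequence from RefSeq (GRCm38.p6) was found for 8 of the 10 genes, all but Pvr and Cd86. The promoters of Cd274 and Lgals9 are shown because these were the members with enough counts that were higher in every hashtag used when melanoma cells carried the interferon-inducible genes Ubd or Iigp1, and that of Pdcd1lg2 because it is the neighbour of Cd274. Each is written 5′ to 3′ on the gene's strand, and capitals mark a match to one of 3 motifs searched on both strands: GAAANNGAAA (an interferon-stimulated response element), TTCNNNGAA (a gamma-activated site) and its longer form TTCNNNNGAA.
Cd274, chr19:29367188-29367437, plus strand: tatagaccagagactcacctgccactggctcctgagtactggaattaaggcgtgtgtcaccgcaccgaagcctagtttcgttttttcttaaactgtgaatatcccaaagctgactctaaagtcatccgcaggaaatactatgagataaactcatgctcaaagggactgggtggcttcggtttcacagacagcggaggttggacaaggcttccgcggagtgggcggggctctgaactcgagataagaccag
Pdcd1lg2, chr19:29410669-29410918, plus strand: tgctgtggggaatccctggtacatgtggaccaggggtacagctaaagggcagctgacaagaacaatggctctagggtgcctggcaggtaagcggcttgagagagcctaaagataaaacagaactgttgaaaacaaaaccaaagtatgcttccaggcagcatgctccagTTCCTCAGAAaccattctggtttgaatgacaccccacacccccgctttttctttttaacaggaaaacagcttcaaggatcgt
Lgals9, chr11:78984947-78985174, minus strand: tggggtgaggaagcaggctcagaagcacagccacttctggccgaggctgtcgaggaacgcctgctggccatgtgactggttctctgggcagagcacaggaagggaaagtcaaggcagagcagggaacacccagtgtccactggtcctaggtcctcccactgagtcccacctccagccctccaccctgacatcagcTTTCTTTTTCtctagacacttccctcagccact
The Cd274 run holds none of the 3 motifs, which says only that these letters are not in this window. The Lgals9 run holds TTTCTTTTTC, the minus-strand form of GAAANNGAAA, 55 bases before the RefSeq start. That run has 228 bases because it stops where GENCODE starts the gene. A second match in the Lgals9 window, TTTCTGTTTC at base 16 from the RefSeq start, lies outside it. The Pdcd1lg2 run holds TTCCTCAGAA 82 bases before its start. Over 32851 windows of 250 bases before to 50 after a start, 3.44% held GAAANNGAAA, 8.30% held TTCNNNGAA and 6.95% held TTCNNNNGAA. Of the 8 members with a window, Lgals9 and Tnfrsf14 held the first, none held the second and Pdcd1lg2 held the third.

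Kept barcodes held a median of 26436 counts (4142 to 892142), and 6158 of them (54.4%) were assigned to 1 hashtag in use. The hashtag table shared 11808 barcodes with the mRNA table, but with a median of 12 hashtag counts a barcode the assignment was shallow. Clusters made without the 10 members were called by marker genes, so each name below means a cluster like that cell type: 1011 melanoma, 1498 macrophage, 277 dendritic, 138 neutrophil and 7898 T cell barcodes, with 136 gamma delta T cell barcodes beside them. The macrophage class was named by markers of macrophages and monocytes together, among them Ly6c2 and Ccr2, and the cell types were not separated. The label says CD3e-enriched T cells. Of macrophage barcodes 62.8%, and of dendritic barcodes 69.0%, also held at least 2 T cell genes at 5 or more counts. The summed T cell gene list (Trac, Cd3d, Cd3e, Cd3g, Trbc2) in macrophage barcodes reached 39.2% of its level in T cells. In T cells, macrophage genes (C1qa, C1qb, C1qc, Csf1r, Lyz2, Cd68) reached 0.775% of their macrophage level. Levels are in CPM, a gene's summed counts in a class scaled to a fixed total of 1000000 counts. They are given with an exact 95% Poisson interval that covers counting error only. Counts were treated as reads of a smaller number of molecules, so such an interval is narrower than the error of molecules. They compare 1 gene between classes and not 1 gene with another, because no gene length was used. A barcode is said to hold a gene at 5 or more counts.

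**Figure D1:**
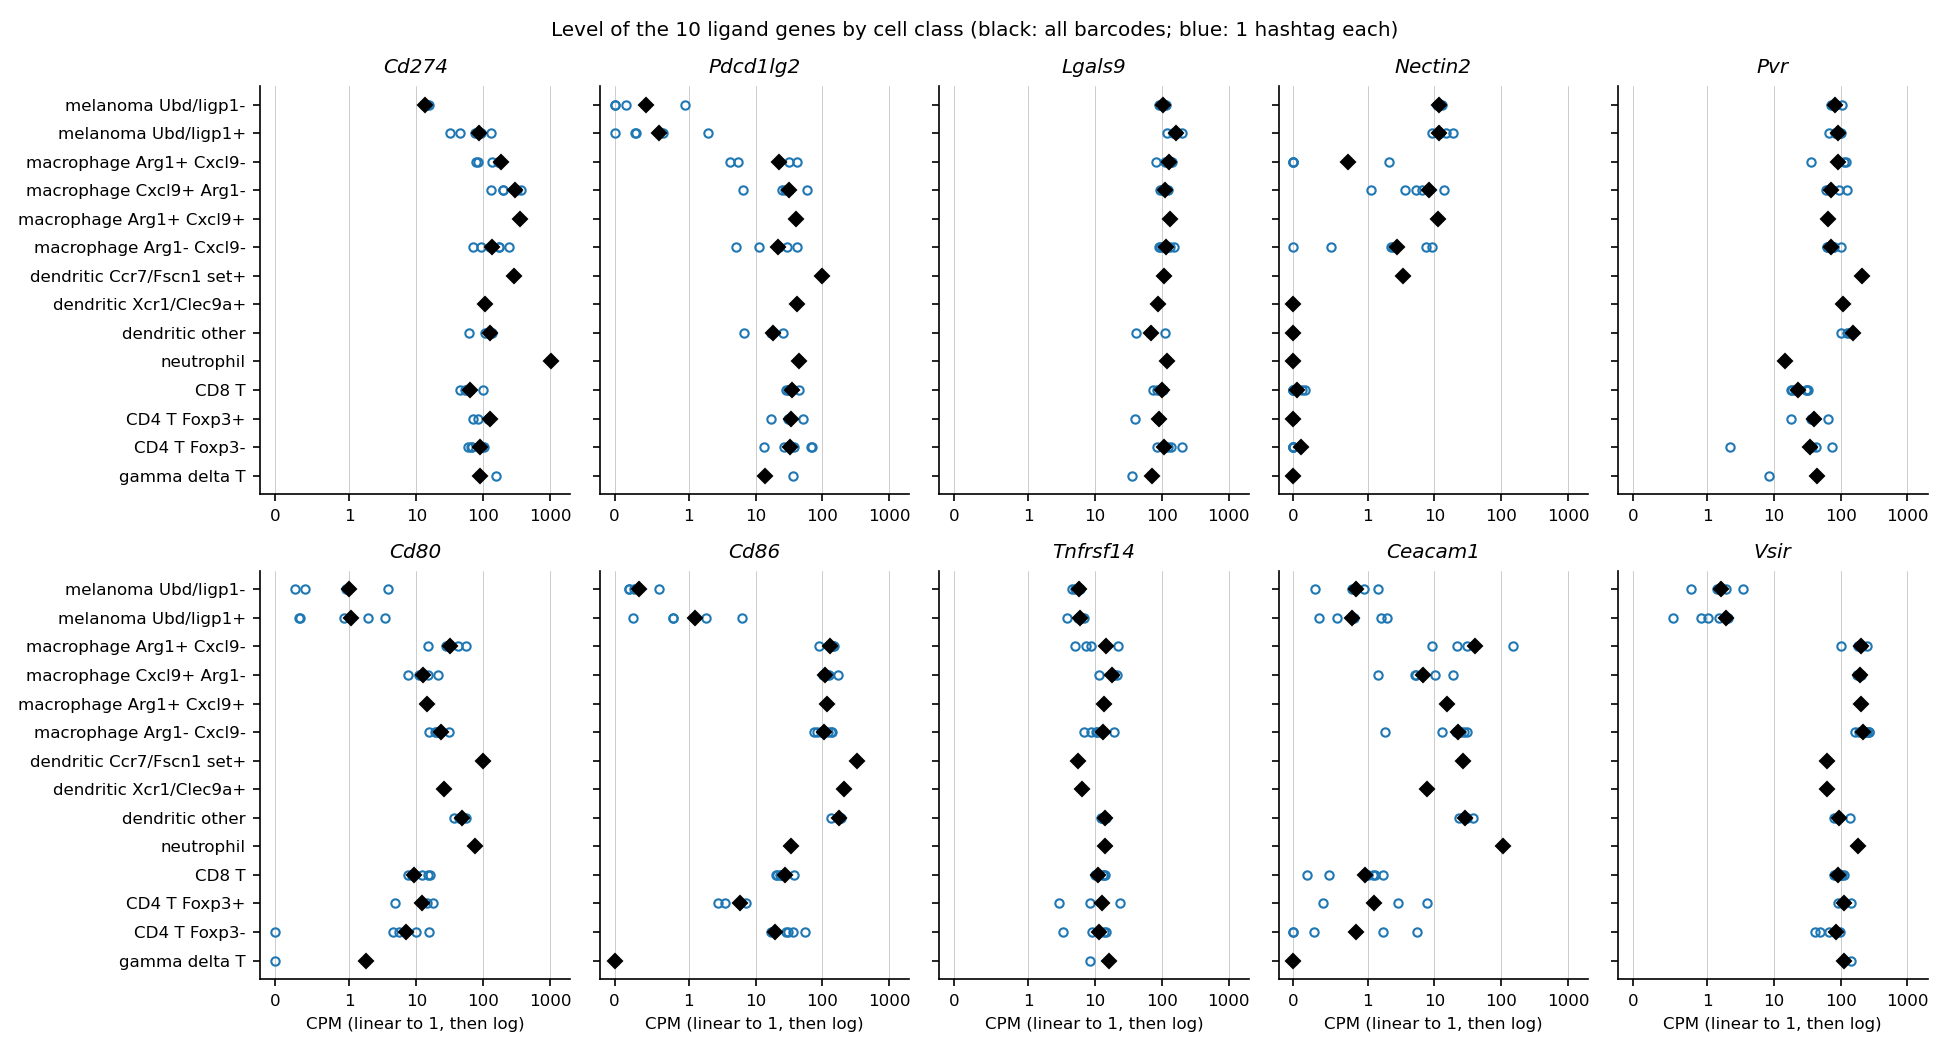
Level of each of the 10 ligand genes by cell class, in 1 panel per gene with the classes on the vertical axis and CPM on the horizontal axis, which is linear up to 1 and logarithmic above. A black diamond is all barcodes of a class and each blue circle 1 hashtag; Cd274 reached 1038 CPM in neutrophils and 13.5 CPM in melanoma cells without Ubd or Iigp1, whereas Tnfrsf14 lay between 5.59 and 18 CPM in the classes described.

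Cd274 (ENSMUSG00000016496, GRCm38 chr19:29367455-29388095, plus strand) differed widely between classes. It reached 1038 CPM (95% interval 989 to 1089) in neutrophils, 356 CPM in macrophages with both Cxcl9 and Arg1, 297 CPM in macrophages with Cxcl9 and no Arg1, and 294 CPM in the dendritic barcodes with at least 2 of Ccr7, Fscn1, Ccl22, Cacnb3 and Il4i1, genes of mature dendritic cells. Lower values were found in macrophages with Arg1 and no Cxcl9 (183 CPM), CD4 Foxp3+ T cells (127 CPM), CD4 Foxp3- T cells (91.4 CPM), melanoma cells with Ubd or Iigp1 (86.2 CPM) and CD8 T cells (64.1 CPM). Melanoma cells with neither gene had 13.5 CPM, lower than any other class.

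The neutrophil value rested on few counts: 1670 counts of Cd274 in 138 barcodes, whose median depth was 9256 counts. Of those barcodes 57 (41.3%) held Cd274, and 10 barcodes carried 48.0% of its counts. The 129 neutrophil barcodes without T cell genes gave 1201 CPM. No hashtag had 20 neutrophil barcodes, so no spread over hashtags can be given.

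The pooled macrophage level of Cd274 was 238 CPM, and A0303 (336 CPM) and A0304 (312.7 CPM) were the high samples. A0302 followed with 183 CPM and A0301 with 172 CPM, and the low samples were A0306 (117 CPM) and A0305 (104 CPM). The shares of macrophages with Cxcl9 were 74.1% and 75% in A0303 and A0304 and between 20.9% and 43% in the other 4 hashtags. Macrophages of A0303 and A0304 were also deeper, with median depths of 93684 and 98232 counts against 60848 to 71312 in the others, and A0303 had 321 macrophage, 274 T cell and 6 melanoma barcodes, against 178, 764 and 287 in A0306. The part of these values in the Cd274 level was not tested. In T cells Cd274 ranged from 63.2 to 125 CPM over the hashtags (median 72.0), and A0303 was again highest. T cell Cd274 was 43.6 times the level that macrophage RNA at the leaked share would give. Macrophages held Cd274 in 57.7% of barcodes (median depth 74977), against 15.4% of melanoma barcodes without Ubd or Iigp1 (median depth 181348), the class with the lowest level. After thinning every barcode to 10000 counts and counting 2 or more, the shares were 41.9% of 1442 macrophage barcodes and 3.14% of 573 melanoma barcodes.

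Pdcd1lg2 (ENSMUSG00000016498, chr19:29410919-29471161, plus strand) begins 22823 bases after the end of Cd274 and encodes the other ligand of PD-1. Its highest level was 97.9 CPM (84 to 114) in the mature-type dendritic barcodes, from 175 counts in 28 barcodes. All macrophages had 27.6 CPM and all T cells 32.2 CPM. Over hashtags its macrophage level ran from 5.25 CPM in A0306 to 54.1 CPM in A0304, with a median of 29.5, and its T cell level from 25.1 to 39.8 CPM with a median of 31.5. The T cell range lay inside the macrophage range. In macrophages without T cell or melanoma genes the level was 17.8 CPM, below the T cell range. The part of T cell RNA in the level of all macrophages was not tested. Melanoma cells had 0.505 CPM, with Pdcd1lg2 in 0.593% of barcodes at a median depth of 193913 counts, against 12.9% of macrophages.

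Cd80 (ENSMUSG00000075122, chr16:38455561-38496335, plus strand) was highest in the mature-type dendritic barcodes, at 101 CPM, and in neutrophils, at 76.5 CPM from 123 counts. All dendritic barcodes together had 51.2 CPM, macrophages 18.1 CPM, T cells 8.47 CPM and melanoma cells 1.01 CPM. Cd80 was held by 17.7% of dendritic, 10.9% of macrophage and 2.1% of T cell barcodes, and by 0.791% of melanoma barcodes at nearly 4 times the median depth of dendritic barcodes (193913 against 51245 counts).

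Cd86 (ENSMUSG00000022901, chr16:36603869-36666081, minus strand) followed the antigen-presenting classes. It stood at 331 CPM in mature-type dendritic barcodes, 209 CPM in dendritic barcodes with Xcr1 or Clec9a, genes of the cross-presenting subset, 178 CPM in the other dendritic barcodes and 111 CPM in macrophages. Macrophage levels over hashtags ran from 96.2 to 148 CPM (median 110), and dendritic levels were 192 CPM in A0301, 257 in A0305 and 131 in A0306, so the ranges overlapped. CD8 T cells had 27.6 CPM of Cd86, CD4 Foxp3- T cells 19.5 CPM and CD4 Foxp3+ T cells 5.78 CPM. Gamma delta T cells had 0 counts of Cd86 in 136 barcodes, where 3 counts would be 1.34 CPM. The T cell level was 26.3 times that of leaked macrophage RNA. Melanoma cells had 0.758 CPM.

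Pvr (ENSMUSG00000040511, chr7:19903578-19921160, minus strand) and Nectin2 (ENSMUSG00000062300, chr7:19716644-19750483, minus strand) lie 153094 bases apart and bind the same receptor pair. Pvr was found in all the main classes: 152 CPM in dendritic barcodes, 86.0 CPM in melanoma cells, 72.6 CPM in macrophages and 29.3 CPM in T cells. In melanoma cells its level over hashtags varied little, from 69.4 CPM in A0304 to 95.9 CPM in A0302 (median 88.3). Macrophage values ran from 63.6 to 101 CPM over the hashtags and overlapped those of melanoma. Pvr was held by 63.7% of melanoma barcodes and 6.22% of T cell barcodes (median depth 20810), and the shares were 20.5% and 6.16% after thinning.

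Nectin2 had a narrower distribution. Melanoma cells had 11.8 CPM, with 11 CPM as the lowest hashtag value, 11.7 as the median and 14.5 as the highest, and 26 fibroblast barcodes had 17.4 CPM from 50 counts. Macrophages had 5.96 CPM and varied widely between hashtags, from 0 in A0302 and 1.37 in A0305 to 6.23 in A0304 and 13.1 in A0303. Macrophage and melanoma ranges overlapped. Nectin2 was held by 1 of 7898 T cell barcodes (0.0127%), and its T cell level of 0.145 CPM, from 36 counts, was 3.13 times that of leaked macrophage RNA. In CD8 T cells, with 8 counts, the level was 0.957 times the leaked one, which is at background. Neutrophils had 0 counts, where 3 counts would be 1.86 CPM. The dendritic barcodes outside the mature-type and Xcr1 or Clec9a groups also had 0, where 3 counts would be 0.236 CPM.

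Lgals9 (ENSMUSG00000001123, chr11:78962974-78984946, minus strand), the gene of galectin-9, a ligand of TIM-3, was measured in every class. Melanoma cells had 131 CPM, macrophages 115, T cells 101 and dendritic barcodes 74.5. Over hashtags it ran from 108 to 192 CPM in melanoma cells (median 128), from 105 to 131 CPM in macrophages (median 118) and from 89.2 to 107 CPM in T cells (median 94.3). Neighbouring classes in this order overlapped. No class lacked the gene, and the low share of T cell barcodes that held it (20.6%, against 79.4% of melanoma barcodes) went with a median depth of 20810 against 193913 counts; after thinning the shares were 19.6% and 31.7%.

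Ceacam1 (ENSMUSG00000074272, chr7:25461707-25477603, minus strand) encodes a cell adhesion receptor that has also been described as a TIM-3 ligand. It reached 218 CPM in a 50-barcode cluster led by Ace, Ear2 and Treml4 that was left unnamed, and it is among the 10 leading genes of that cluster, so the value is a description. Neutrophils had 106 CPM from 170 counts, dendritic barcodes 26.3 CPM and macrophages 15.7 CPM. Over hashtags the macrophage level ran from 1.71 CPM in A0304 to 47.8 CPM in A0306 (median 15.1). Macrophages without T cell or melanoma genes had 40.9 CPM. T cells had 1.04 CPM and melanoma cells 0.821 CPM, with Ceacam1 in 1.19% of melanoma and 8.14% of macrophage barcodes. Ceacam1 has a close paralog, Ceacam2, and the sources used here do not say how reads shared by the pair were counted.

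Tnfrsf14 (ENSMUSG00000042333, chr4:154921933-154928563, minus strand), the gene of HVEM, which binds BTLA and CD160, had few counts in every class. Macrophages had 15.9 CPM (hashtags 9.38 to 17.7, median 15.2), T cells 11.9 (11.8 to 14.1, median 13) and melanoma cells 5.87 (4.16 to 6.13, median 5.85). The macrophage and T cell ranges overlapped, and the melanoma range lay below both.

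Vsir (ENSMUSG00000020101, chr10:60346851-60372684, plus strand) encodes VISTA, an inhibitory B7-family protein known from myeloid and T cells. Macrophages had 204 CPM (hashtags 137 to 220, median 212), neutrophils 182 CPM, T cells 94.2 CPM (86.2 to 100.1, median 93.5) and dendritic barcodes 87.7 CPM. The macrophage range lay above the T cell range in all 6 hashtags. Vsir was held by 66.8% of macrophages and 1.19% of the deeper melanoma barcodes, whose level was 1.76 CPM. Vsir was also even within macrophages, between 195 and 218 CPM in the 4 groups by Cxcl9 and Arg1.

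Melanoma cells were then split by Ubd and Iigp1, a ubiquitin-like protein gene and a GTPase gene that are induced by interferon: 438 barcodes held either gene and 573 held neither. A gene counted as changed when the log2 ratio of the scaled sums (5 counts added to each) was at least 1 in size and had the same sign in every hashtag with 20 barcodes in both groups. Cd274 was the member that rose. It stood at 91.7 CPM with and 15.2 CPM without the genes in A0301, at 75.9 and 13.6 in A0302, at 31.8 and 14.3 in A0305, and at 44.5 and 13.2 in A0306. The cells with Ubd or Iigp1 were higher in all 4 hashtags, and no value of one group reached those of the other. A0304, with 37 cells that held the genes and too few without, had 131 CPM. Pooled, the levels were 86.2 and 13.5 CPM, a 6.38-fold difference (log2 ratio 2.67, counting interval 2.60 to 2.76; hashtags 1.14 to 2.56, median 2.08).

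Among the 7 members with enough counts, 1 rose and 0 fell, beside a background of 2.03% of 13004 genes that rose and 0.277% that fell. Lgals9 was 160 CPM with and 92.2 without the genes in A0301, 145 and 116 in A0302, 169 and 105 in A0305, and 119 and 103 in A0306. It was higher with Ubd or Iigp1 in 4 of 4 hashtags, the ranges of the groups did not overlap, and the log2 ratio of 0.68 stayed under the limit. The remaining members had smaller pooled log2 ratios, whose sign differed between hashtags: 0.18 for Pvr, 0.01 for Nectin2, 0.08 for Tnfrsf14, 0.28 for Vsir and 0.07 for Cd80. The sparse Cd80 counts gave hashtag ratios from -2.57 to 2.02. Pdcd1lg2, Cd86 and Ceacam1 had too few counts to be examined. The 7 members had a median log2 ratio of 0.18, beside -0.02 over all genes examined.

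Of 23 examined genes on an interferon-gamma list that holds neither the members nor Ubd and Iigp1, 21 rose and 0 fell, with a median log2 ratio of 2.50. The largest changes were in Ciita, the MHC class II transactivator (6.70), and in the GTPase genes Gbp2 (5.30), Gbp5 (5.28), Igtp (5.13) and Gbp3 (4.54). Within hashtags Ciita (3.96 to 5.76), Gbp5 (3.21 to 4.55) and Igtp (3.48 to 4.69) stayed below these pooled values. The ranges of Gbp2 (3.83 to 5.42) and Gbp3 (2.97 to 5.50) included theirs. Irf1 (2.85), the gene of an interferon-induced transcription factor, is on the interferon list and on a list of regulators of Cd274. Of 13 other ligand genes 1 rose, H2-T23 (2.11, hashtags 1.07 to 1.55), which encodes the NKG2A ligand Qa-1. Of 7 receptor genes examined 0 were called.

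As a measure of macrophage RNA in the melanoma groups, C1qa, C1qb and C1qc reached 0.559% of their macrophage level with Ubd or Iigp1 and 0.268% without, and Cd274 was 65.0 and 21.1 times the level this share would give. By a list that adds Csf1r, Lyz2 and Cd68 the share was 7.25% with Ubd or Iigp1 and 7.40% without, and Cd274 was then 5.01 and 0.766 times the leaked level, so that by this list the lower group was at background. Median depth was 210072 counts with and 181348 without the genes. Within the larger of the 2 melanoma clusters alone, the one led by Car6 and Nppb, the Cd274 log2 ratio was 1.15, and between cells with both genes and with neither it was 3.72.

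**Figure D2:**
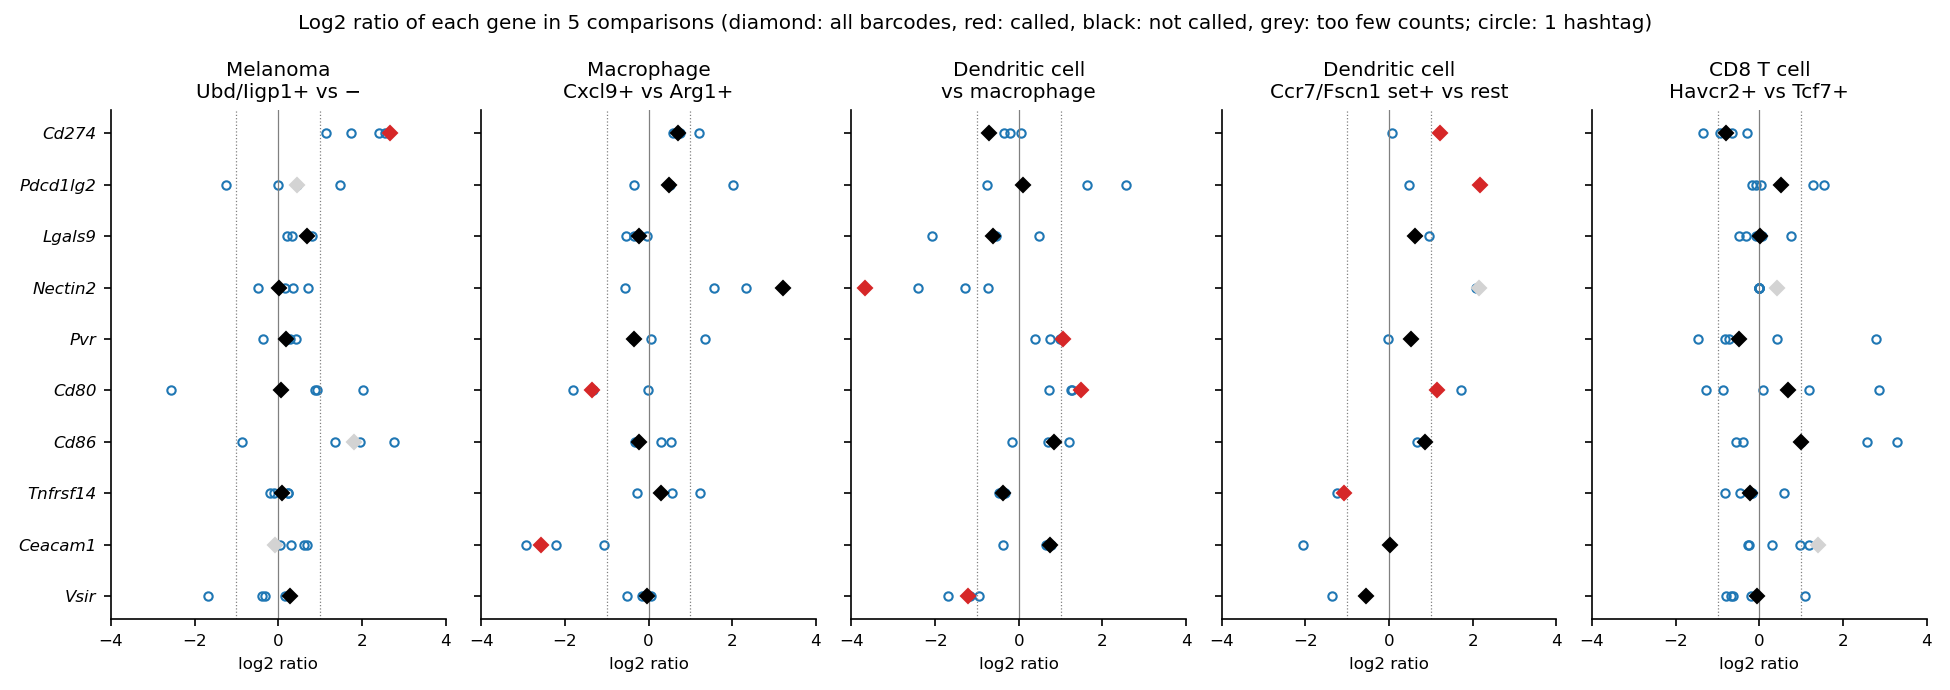
Log2 ratio of each member in the 5 comparisons, with diamonds for all barcodes (red: called; black: not called; grey: too few counts) and circles for single hashtags; dotted lines mark the limit of 1 in size. Cd274 lies at 2.67 in melanoma cells with Ubd or Iigp1, and Ceacam1 at -2.57 in macrophages with Cxcl9 against those with Arg1.

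Sorting the 1011 melanoma barcodes into quartiles by the share of their counts on the 24 listed interferon-gamma-induced genes used no gate gene. Cd274 was 9.37 CPM in the lowest quartile, then 14.4, 30.2 and 135 CPM, and it was held by 12.3%, 17.1%, 25.7% and 59.7% of barcodes. Lgals9 went from 82.9 through 115 and 134 to 193 CPM. Pvr stayed between 75.9 and 92.6 CPM, Nectin2 between 11 and 13 CPM and Tnfrsf14 between 5.19 and 7.04 CPM. The quartiles are ranges of a score and not cell types, and their median depths lay between 180085 and 203458 counts.

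**Figure D3:**
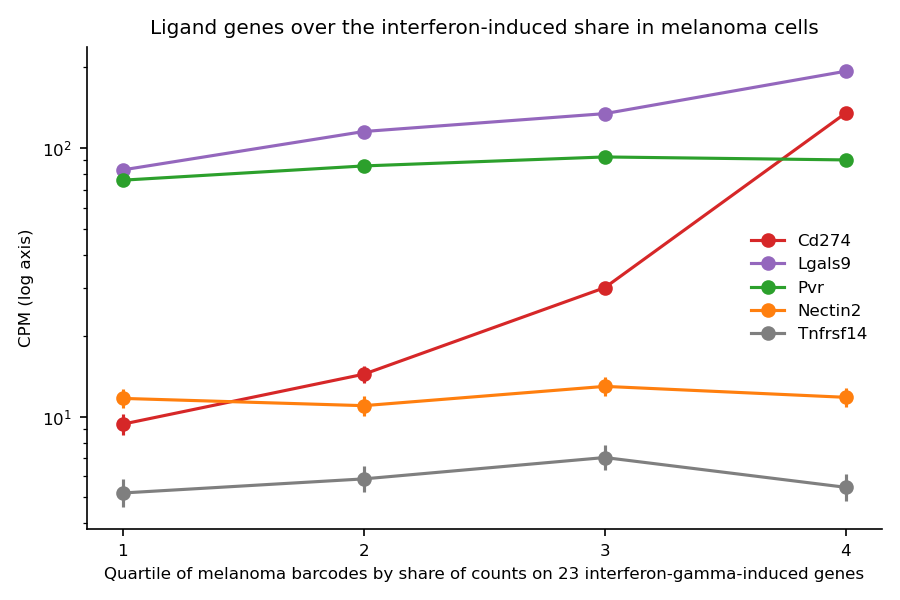
CPM (log axis) of 5 members in the 4 quartiles of melanoma barcodes by interferon-gamma-induced share, with counting intervals as bars. The share is over all 24 listed genes, while the axis label gives the 23 examined between the melanoma groups. Cd274 rises from 9.37 to 135 CPM, Lgals9 from 82.9 to 193 CPM, and Pvr, Nectin2 and Tnfrsf14 stay nearly level.

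Macrophages were compared between 683 barcodes with Cxcl9, the gene of an interferon-induced T cell chemokine, and no Arg1, and 164 barcodes with Arg1, the arginase gene of alternatively activated macrophages, and no Cxcl9. Either group may hold monocytes, and their part in the values was not tested. Ceacam1 and Cd80 were the members that were lower with Cxcl9. Of 10 members 0 rose and 2 fell, beside 3.5% of 11348 genes that rose and 2.86% that fell. The members' median log2 ratio was -0.13 and that of all genes examined 0.03.

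Ceacam1 in Arg1 macrophages was 21.9 CPM in A0301, 9.29 in A0302, 30.7 in A0305 and 152 in A0306. In Cxcl9 macrophages it was 18.7 CPM in A0306, 10.1 in A0301 and 5.17 in A0305, and also 5.30 in A0303 and 1.45 in A0304. It was lower with Cxcl9 in the 3 hashtags that held both groups, while the ranges over hashtags overlapped. The log2 ratio was -2.57 (hashtags -2.92 to -1.06) and -1.44 without A0306. After thinning it was -2.59, from too few counts to be called.

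Cd80 in Arg1 macrophages was 14.9 CPM in A0301, 27.9 in A0302, 56.0 in A0305 and 42.6 in A0306. In Cxcl9 macrophages it was 21.1 CPM in A0305, 14.9 in A0301 and 11 in A0306, and also 12.3 in A0303 and 7.56 in A0304. The groups were level in A0301 and apart in A0305 and A0306. The log2 ratio of -1.35 (hashtags -1.81 to -0.01) was not called under 5 alternatives. It was under the limit by the mean of per-barcode CPM (-0.81) and after thinning (-0.91, from too few counts). It stayed past the limit under median-of-ratios scaling (-1.35), with gates at 10 counts (-1.01) and without the highest doublet scores (-1.53), where the sign was not the same in every hashtag.

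Cd274 was higher with Cxcl9 but under the limit. In the 3 hashtags that held both groups it was 202 CPM with Cxcl9 and 134 with Arg1 in A0301, 133 and 78.9 in A0305, and 195 and 83.8 in A0306. The Cxcl9 group was higher in 3 of 3 hashtags, with a log2 ratio of 0.70 (0.59 to 1.20). Among the barcodes without T cell or melanoma genes the ratio was 1.22, and for Pdcd1lg2 2.05; both then passed the limit, but no hashtag had 20 such barcodes in both groups. With the T cell genes, 68.7% of Cxcl9 and 57.3% of Arg1 macrophages held at least 2, and the median depths were 90607 and 60490 counts. The part of either in these values was not tested.

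Nectin2 had a log2 ratio of 3.21 that rested on 9 counts in the Arg1 group and had the opposite sign in A0301; without A0301 it was 4.20 and called. Lgals9 (-0.22), Cd86 (-0.23), Pvr (-0.34), Vsir (-0.04), Tnfrsf14 (0.30) and Pdcd1lg2 (0.49) stayed under the limit. Of 23 examined interferon-gamma genes 11 rose and 0 fell, with a median log2 ratio of 0.98. The 11 and the median include the gate gene Cxcl9, whose rise was set by the split. Beside the gate gene Cxcl9 (8.62), the largest were Cxcl10 (2.35), Ciita (2.23) and Gbp5 (1.80). Of 17 other ligand genes 1 rose, Icam1 (1.06), and 2 fell, Cd24a (-3.50) and Lgals3 (-1.02). Within hashtags Icam1 was smaller, from 0.02 to 0.92. Cd24a ran from -4.93 to -0.26 and Lgals3 from -1.06 to -0.33.

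All 277 dendritic barcodes were compared with all 1498 macrophages, and the sign was read in the 3 hashtags that had at least 20 of both. A0303 and A0304 held 321 and 124 of the macrophages but 8 and 3 of the dendritic barcodes. Several pooled ratios below lie outside the range of the 3 hashtags. Cd80 and Pvr were higher in dendritic barcodes and Vsir and Nectin2 lower. Of 10 members 2 rose and 2 fell, beside 4.03% of 12666 genes that rose and 9.58% that fell. The members had a median log2 ratio of -0.15, beside 0.01 over all genes examined.

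Cd80 was 51.1 CPM in dendritic barcodes and 20.9 in macrophages in A0301, 58.7 and 24.4 in A0305, and 36.9 and 21.9 in A0306. All dendritic values lay above all macrophage values, with a log2 ratio of 1.5 (hashtags 0.73 to 1.28). Pvr was 123 against 73.4 CPM in A0301, 136 against 68.5 in A0305 and 131 against 101 in A0306. Dendritic values were again higher in 3 of 3 hashtags. Its log2 ratio of 1.07 lay near the limit (hashtags 0.38 to 0.98) and was 0.99 under median-of-ratios scaling, 0.93 after thinning and 0.71 without barcodes with genes of another class.

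Vsir was 83.2 CPM in dendritic barcodes and 189 in macrophages in A0301, 67.4 and 220 in A0305, and 109 and 212 in A0306. The groups did not overlap, and the log2 ratio was -1.21 (hashtags -1.70 to -0.95). Nectin2 had 6 counts in dendritic barcodes and 749 in macrophages (log2 ratio -3.67), but its ratios within hashtags were smaller, from -2.40 to -0.75. Without A0301 it was -5.50 and without A0303 -2.84, and after thinning or without barcodes with genes of another class its counts were too few to be called. Cd86 had a log2 ratio of 0.84, was higher in 2 of 3 hashtags and passed the limit at 1.02 without A0306. Cd274 was 0.72 lower on the log2 scale in dendritic barcodes, with a higher value in 1 of 3 hashtags (ratios from -0.36 to 0.05), and was not called.

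Among 19 other ligand genes 3 rose in dendritic barcodes and 0 fell: Nectin1 (4.40), Cd24a (3.73) and Icosl (2.04), the gene of the ICOS ligand. Of 12 receptor genes 2 rose, Btla (2.48) and Ctla4 (1.51), and 2 fell, Rgmb (-1.13) and Pdcd1 (-1.07). T cell genes were at 35.7% of their T cell level in dendritic barcodes and 39.2% in macrophages, and their part in the receptor values was not tested.

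Within dendritic barcodes, the 28 mature-type ones were compared with the other 249. Of 9 members examined 3 were higher and 1 lower, beside 5.1% and 13.1% of 7730 genes. Pdcd1lg2 was 97.9 against 21.0 CPM (log2 ratio 2.17), Cd274 294 against 126 CPM (1.21) and Cd80 101 against 45 CPM (1.15). Only A0301 had 10 barcodes in both groups. There the log2 ratios were 0.47 for Pdcd1lg2, 0.08 for Cd274 and 1.71 for Cd80, so that the Cd274 and Pdcd1lg2 differences were much smaller in the 1 hashtag that could be read. Without barcodes with genes of another class, which left 11 of the 28 and no hashtag to read, Lgals9 turned from 0.61 to -4.25 and Pvr from 0.52 to -1.29. Without A0306 the Cd274 ratio was 0.97, and without A0301 that of Cd80 was 0.59. Cd86 was 331 against 182 CPM (0.86) and was not called. Tnfrsf14, the member that was lower (-1.09), rested on 10 counts. It kept its call only by the mean of per-barcode CPM, under median-of-ratios scaling and with no filter on low counts. With gates at 10 counts it was under the limit (-0.99). Under every other alternative, also when any 1 hashtag was left out, it had too few counts to be examined.

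Of 16 other ligand genes 3 were higher in the mature-type barcodes, Cd200 (2.29), Tnfsf4 (1.38), the gene of the OX40 ligand, and Icosl (1.22), and Cd48 was lower (-1.24). The members' median log2 ratio was 0.61, beside -0.10 over all genes examined.

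CD8 T cells were divided into 1191 barcodes with Havcr2, the gene of TIM-3, a mark of exhausted cells, and no Tcf7, and 703 with Tcf7, the gene of TCF1, a mark of stem-like cells, and no Havcr2. Of 8 members examined 0 were called, beside 3.2% of 11133 genes that were higher with Havcr2 and 3.04% that were lower. Cd274 was lower with Havcr2 in 5 of 5 hashtags: 48.9 against 94.4 CPM in A0301, 37.1 against 46.7 in A0302, 48.5 against 77.7 in A0304, 29.4 against 77.6 in A0305 and 40.9 against 72.8 in A0306. The ranges of the groups overlapped slightly, and the log2 ratio of -0.80 (hashtags -1.34 to -0.30) stayed under the limit. Cd86 was 25.4 CPM with Havcr2 and 12.7 with Tcf7 (log2 ratio 1.00 after rounding, just under the limit), and was higher in 3 of 5 hashtags. Pdcd1lg2 (0.52), Cd80 (0.70), Lgals9 (0.01), Vsir (-0.05), Pvr (-0.48) and Tnfrsf14 (-0.23) were not called. Some members passed under other settings: Cd86 after thinning (1.18) and by the mean of per-barcode CPM (1.34), Pdcd1lg2 after thinning (1.17) and Cd80 without the highest doublet scores (1.07). Median depth was 44593 counts with Havcr2 and 23507 with Tcf7.

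**Figure D4:**
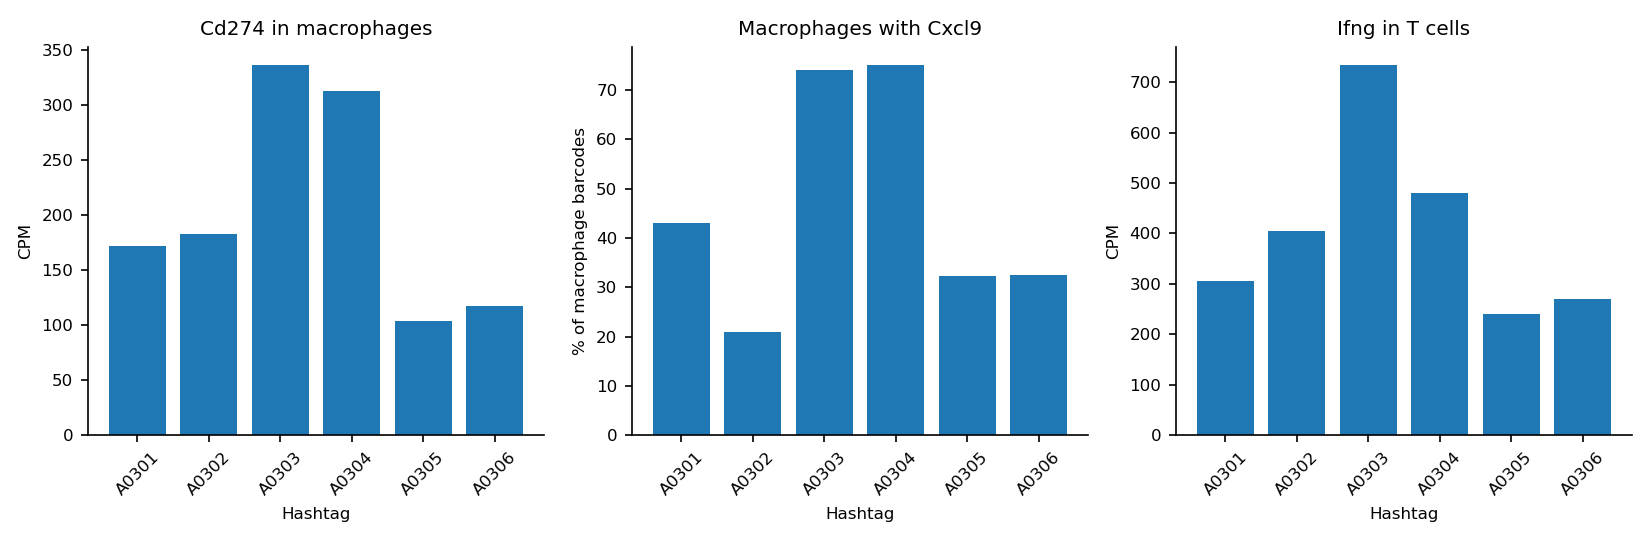
Cd274 level in macrophages (CPM), share of macrophage barcodes with Cxcl9 (%) and Ifng level in T cells (CPM) in each of the 6 hashtags; bars start at 0. A0303 and A0304 have the highest value in all 3 panels, with 336 and 312.7 CPM of Cd274 in macrophages.

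The receptors of these ligands were read in the T cells beside them. CD8 T cells had 289 CPM of Pdcd1, the PD-1 gene, against 85.8 in CD4 Foxp3+ and 138 in CD4 Foxp3- T cells, and 161 CPM of Havcr2 against 57.8 and 48.4. Ctla4 was highest in CD4 Foxp3+ T cells, at 2602 CPM against 799 in CD8 T cells, and so was Tigit, at 205 against 96.4 CPM. Cd226, the activating receptor for Pvr and Nectin2, was 137 CPM in CD8 T cells and 28.8 CPM in CD4 Foxp3+ T cells. Of 11 receptor genes examined between the CD8 groups, 2 were higher with Havcr2 (the gate gene itself and Pdcd1, 1.18) and 1 lower (Btla, -2.16).

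Members were also counted together in 1 barcode. At least 3 of the 10 were held by 71.2% of Cxcl9 macrophages, 57.3% of Arg1 macrophages, 40.4% of melanoma cells with Ubd or Iigp1, 19.2% of those with neither and 5.50% of T cells, whose depths differ as given above. Cd274 and Pdcd1lg2 met in 150 of 1498 macrophages (10%), and Pdcd1lg2 was held by 17.4% of macrophages with Cd274 and 6.78% of those without. After thinning, 604 of 1442 macrophages held Cd274, 73 held Pdcd1lg2 and 39 held both. Cd80 and Cd86 met in 91 macrophages (6.07%) and 30 of 277 dendritic barcodes (10.8%). Cd274 and Cd80, whose products can bind each other on the same cell, met in 90 macrophages (6.01%) and 22 dendritic barcodes (7.94%), and in 2 of 1011 melanoma barcodes. Cd80 was held by 10.4% of macrophages with Cd274 and 11.5% of those without, so the pair did not meet more often there than apart. In dendritic barcodes the shares were 20.8% and 15.8%. Pvr and Nectin2 met in 131 melanoma barcodes (13%), with Nectin2 in 20.3% of those with Pvr and 13.1% of those without. This difference was not seen after thinning. Pvr was then about as common among barcodes with Nectin2 (5 of 26) as among all melanoma barcodes (207 of 1011). The part of depth in these overlaps was not tested.

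Over 15 classes, the genes whose log2 levels followed each member most closely were named by Pearson's r, as a description: the classes come from 1 library and differ in depth. For Cd274 these were Ccrl2 (0.94), Isg15 (0.94) and Ppp1r15a (0.91), for Cd86 Tnip3 (0.97) and Itgax (0.96), for Vsir Trim14 (0.98) and Vav1 (0.98), and for Nectin2 Nuak1 (0.95). Ceacam1 was followed by Ptafr (0.97) and by its paralog Ceacam2 (0.97), Pvr by Ctnna1 (0.92), Cd80 by Apobr (0.93), Lgals9 by Tmem140 (0.87), Pdcd1lg2 by Ube2d3 (0.96) and Tnfrsf14 by Nlrx1 (0.89).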

How the data were processed

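The deposited tables of 1 capture were used: whole-number counts per gene and barcode, and counts per hashtag and barcode. The submitters' processing notes list R 3.5.3, Bowtie2 (2.4.2 and 2.3.4.1) and cutadapt 2.10, with GRCm38 as the build. No source used here says whether the authors collapsed reads by their molecular identifiers. The median non-zero value was 7, so counts were treated as reads of a smaller number of molecules, and intervals cover counting error only. Barcodes were filtered as in the report and clustered with scanpy 1.11.5 (3000 variable genes without the members, 40 components, 20 neighbours, Leiden resolution 1). Clusters were named by at least 3 detected markers; the other markers detected included 10 of 11 for T cells in the macrophage class, and the gamma delta class rests on 3. Doublets were scored with Scrublet and kept, and leaving out the 646 highest was an alternative. Hashtags were assigned from the counts in 12 of 14 hashtag columns, and 2 were not used. Of the kept barcodes, 144 were assigned to a column other than A0301 to A0306. A hashtag was read with at least 20 barcodes per group, or 10 for the dendritic split. Genes with a mean of 100 counts in the 2 sums were examined. The genes named are the 10 members and genes from the fixed lists. Those came from the called genes with the largest ratios, up to 5 per list and comparison, and not all are given. Not named for the dendritic split were 3 of 10 receptor genes (lower) and 1 of 23 interferon-gamma genes (higher). For dendritic barcodes against macrophages these were 1 of 23 interferon-gamma genes higher and 1 lower. For the CD8 groups they were 1 of 13 other ligand genes (higher with Havcr2) and 1 of 22 interferon-gamma genes (lower). The members and lists were chosen with earlier results of these data known, and the limits of 5 counts and 2 thinned counts were set with the read-like scale known. The code was tested on simulated data. Gene positions are from GENCODE vM21 on GRCm38. The values of 1 gene on the fixed lists are not reported here.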

Additional observations from a re-analysis of the deposited data

How the results depend on the processing

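The number of genes called, in either direction, moved with the processing. In melanoma it was 300, and 140 after thinning and 518 with no filter on low counts. It was 885 between cells with both Ubd and Iigp1 and cells with neither, where the sign was read in 1 hashtag instead of 4. Within the cluster led by Car6 and Nppb it was 175. The last pair was chosen after seeing the data. For macrophages it was 722, and 1193 without barcodes with genes of another class, where no hashtag could be used, 314 after thinning and 1121 with no filter. For dendritic barcodes against macrophages it was 1725, and 895 after thinning. For the dendritic split it was 1404, and 4312 with no filter. It was 890 without barcodes with genes of another class and 490 after thinning, where no hashtag could be used. For CD8 T cells it was 694, and 1098 without the highest Scrublet scores. Leaving out each hashtag in turn gave 287 to 392, 709 to 903, 1582 to 1951, 1258 to 1546 and 686 to 838 genes in that order. The 1546 of the dendritic split came without A0301, where no hashtag was left to read. Of 6 classes, the one with the highest level was the same for 9 of 10 members by the mean of per-barcode CPM and after thinning, for 8 without barcodes with genes of another class and for 9 to 10 when a hashtag was left out, but by share of barcodes, a measure added after seeing the data, for 4; Cd274 and Pdcd1lg2 were then highest in macrophages and Pvr in melanoma cells. Within the dendritic split, Lgals9 (-4.25) and Pvr (-1.29) turned to lower without barcodes with genes of another class; the cause was not tested. Cd274 in melanoma kept its call in all 19 alternatives, between 1.15 and 3.72 on the log2 scale. No paired analysis was possible because the groups compared are barcodes of 1 library, and the 2 samples are the mRNA and hashtag libraries of the same cells. Differences were read within hashtags instead. Depth limits the neutrophils (median 9256 counts), and the number of barcodes limits the 28 mature-type dendritic ones.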

Other observations

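Over all T cells, Ifng was 733 CPM in A0303, 480 in A0304, 405 in A0302, 305.7 in A0301, 269 in A0306 and 239 in A0305. Ubd or Iigp1 was held by 92.5% of 40 melanoma barcodes in A0304, 62.1% of 140 in A0301, 40.6% of 69 in A0302, 32.4% of 287 in A0306 and 26.2% of those in A0305, and A0303 had 6 melanoma barcodes. In CD8 T cells alone Ifng was 1092 CPM in A0303, 521 in A0302 and 517 in A0304, and CD8 cells were 257 of 351 T cell barcodes in A0304 and 108 of 185 in A0302. The labels put these hashtags in no group.

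The unnamed cluster of 50 barcodes led by Ace, Ear2 and Treml4 had 418 CPM of Cd274 and 131 CPM of Cd86, and T cell genes were held by 72.0% of its barcodes. A shallow cluster of 284 barcodes with melanoma markers, at a median depth of 7178 counts, had 44.2 CPM of Cd274 from 158 counts and 128 CPM of Lgals9.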
